A study of Mus musculus with 6 samples.

Results

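Laminins are the large cross-shaped glycoproteins of the basement membrane, the sheet of matrix on which epithelia rest. Each secreted laminin is a trimer of 1 alpha, 1 beta and 1 gamma chain, every chain has its own gene, and the alpha chain carries most of the binding sites for cell surface receptors. In the mammary gland, laminin signals through integrins and dystroglycan to orient luminal cells and to keep them differentiated. The members described here are 9 laminin chain genes, taken by symbol from the 41214 genes of the deposited table: 5 for alpha chains (Lama1, Lama2, Lama3, Lama4 and Lama5), 3 for beta chains (Lamb1, Lamb2 and Lamb3) and Lamc1 for gamma 1. All 9 had reads, and 6 had enough of them to be tested.

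The libraries hold total RNA from cultured mouse cells. NMuMG, an immortal mouse mammary epithelial line, was made to express Neu-NT, an activated ErbB2 receptor, and cells were then explanted from the resulting mammary tumors. The control group (genotype label Neu-NT shCON, 3 libraries) received a control hairpin, and the other group (Neu-NT shCdGAP, 3 libraries) a hairpin against CdGAP, which is encoded by Arhgap31 and switches off the GTPases Rac1 and Cdc42. Both groups therefore carry Neu-NT, and both were grown in serum with insulin and G418. The cell type label reads shCTL for all 6 samples, so the groups rest on the titles and the genotype label. How many hairpins or clones each group stands for, whether its libraries came from separate cultures, and the age and strain of the animals is not stated by any source used here. The p-values cover the scatter among these libraries and no more, and that scatter may be technical.

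Levels are FPKM, read counts scaled to gene model length and by a scaling factor for each library, so chains of unequal length can be set side by side. Libraries held 19176540 to 26824249 gene-assigned reads. Arhgap31 stood at 0.149, 0.826 and 0.748 FPKM in libraries 1, 2 and 3 of shCdGAP and at 1.19, 1.30 and 1.35 FPKM in shCON, a lower level in each shCdGAP library, although the difference missed the threshold (adjusted p = 0.0836, limma). Replicate 1 of shCdGAP stood apart, with correlations across genes of 0.948 and 0.938 to replicates 2 and 3 of its own group, against 0.996 between those. Replicates 2 and 3 of shCdGAP correlated more closely with replicates 2 and 3 of shCON (0.955 to 0.958) than with replicate 1 of their own group. For some of the results below, the value without shCdGAP replicate 1 is also given. Of the luminal keratins, Krt8 and Krt18 were at means of 1997 and 2169 FPKM in shCON, whereas Epcam averaged 0.632 FPKM there and 0 in shCdGAP, and Cldn3 had 0 reads in any library. Of the 10 luminal markers, Cdh1 (50.7 FPKM in shCON, 168 in shCdGAP) and Krt7 (0.264 and 0.792) were called higher and Epcam lower. Epcam passed the filter on low genes only through shCON, where it is high, so a difference was built in. The sum of the 10 was 4007 to 6566 FPKM in shCdGAP and 3623 to 5070 in shCON. Markers of other cell types were summed as well. The total FPKM of 8 fibroblast markers was 0.598 to 1.10 in shCdGAP and 0.808 to 0.947 in shCON, and that of 8 endothelial markers 0.0403 to 0.107 and 0.343 to 0.407. For 8 basal or myoepithelial markers it was 0.719 to 2.34 and 0.587 to 0.756. Of these, Cnn1 (3, 1 and 0 reads in shCON) was called higher and Krt5 (0, 1 and 1 reads in shCdGAP) lower. Both passed the filter on low genes only through the group where they are high, so a difference was built in. The sum was 5.78 to 8.26 FPKM in shCdGAP and 4.07 to 4.48 in shCON for 6 Schwann cell markers (Mbp called higher), 0.697 to 1.49 and 3.88 to 5.24 for 5 adipocyte markers (Fabp4 and Cidec called lower), and 0.0582 to 0.0924 and 0.115 to 0.188 for 8 muscle markers. For 8 leukocyte markers it was 3.30 to 9.86 and 13.2 to 17.9 FPKM, most of it Cd68, which was called lower. In the same list Itgam was called higher (means of 0.221 FPKM in shCdGAP and 0.0334 in shCON), with 6, 7 and 2 reads in shCON. Fabp4, Cidec and Itgam passed the filter on low genes only through the group where they are high, so a difference was built in. Lum, Dpt, Emcn, Cldn5, Acta2, Sox10, Plin1 and Adgre1 had 0 reads in all 6 libraries. The part of such cells in the results below was not tested, and in bulk RNA fewer cells of a kind and less RNA per cell cannot be told apart.

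The promoters of 3 members are shown first, because Lamb1 fell, Lamb3 rose and Lama5 supplied nearly all alpha chain mRNA. Each stretch holds no base that GENCODE places in an exon of the gene, reads 5′ to 3′ on the gene's strand and comes from RefSeq's GRCm38.p6 starts.
Lamb1 (chr12:31265043-31265233, plus strand): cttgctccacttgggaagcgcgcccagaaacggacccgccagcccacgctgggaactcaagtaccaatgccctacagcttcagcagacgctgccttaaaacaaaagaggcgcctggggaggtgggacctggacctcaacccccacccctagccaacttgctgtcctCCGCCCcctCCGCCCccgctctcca
Lamb3 (chr1:193301744-193301992, plus strand): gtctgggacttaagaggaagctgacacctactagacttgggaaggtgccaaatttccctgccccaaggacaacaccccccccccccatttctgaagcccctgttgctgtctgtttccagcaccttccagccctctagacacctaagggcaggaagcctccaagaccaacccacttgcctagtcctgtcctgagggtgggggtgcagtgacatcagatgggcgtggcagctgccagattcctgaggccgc
Lama5 (chr2:180225860-180226109, minus strand): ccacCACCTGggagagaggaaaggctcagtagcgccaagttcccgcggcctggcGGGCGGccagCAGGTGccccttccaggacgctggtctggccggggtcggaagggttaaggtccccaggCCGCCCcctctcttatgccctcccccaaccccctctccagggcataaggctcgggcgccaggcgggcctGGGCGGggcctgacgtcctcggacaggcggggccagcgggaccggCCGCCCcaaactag
Capitals mark CACCTG or its reverse complement CAGGTG, the E2 box that Zeb and Snail repressors bind, and GGGCGG or its reverse complement CCGCCC, the GC box of Sp-type factors. TGANTCA, the AP-1 site, was searched on both strands as well and matched in none of the 3 stretches, and no match overlapped one of another motif. Lamb1 holds 2 GC boxes and no E2 box, the Lamb3 stretch shown holds neither, and Lama5 holds 2 E2 boxes and 4 GC boxes. Over the 250 bases before each of 32851 starts in the same table, 17.2% held an E2 box, 6.75% an AP-1 site and 32.7% a GC box. The 250 bases before the start were 62.0% G or C for Lamb1, 58.8% for Lamb3 and 72.4% for Lama5. The median over all starts was 52.4%. For Lamb1, 191 of the 250 bases are shown. Entries were used for 5 of the members. The Lamb3 stretch lies inside the annotated gene, 94045 bases past its first base, with annotated exons of the gene on either side. A second RefSeq start of Lamb3 has a CACCTG that begins 6 bases before it, in exonic sequence that is not shown. These matches are letters in a window, and the data hold no measurement of factor binding.

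Across the laminin chains, 1 member rose, 1 fell and 4 did not pass the test, and 3 had too few reads to be tested. The count of 2 called among 6 tested chains stands beside 21.0% of all 13483 tested genes called by the same test (limma on log2(FPKM + 1), adjusted p under 0.05). By direction, 9.92% of tested genes were higher and 11.1% lower in shCdGAP. The median log2 fold change of the 6 chains was -0.09, beside -0.01 over all tested genes. The authors' deposited table calls 3 of the 9 chains (Lama3, Lamb1 and Lamb3) at the same threshold. It gives Lama4 no adjusted p, and it calls 23.8% of the genes that have one. The groups' ranges did not overlap for 4 of the 6 chains (Lama3, Lamb1, Lamb2 and Lamb3), and for 44.1% of all tested genes. Without shCdGAP replicate 1, again 1 chain was called higher and 1 lower, beside 39.9% of all tested genes called.

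**Figure D1:**
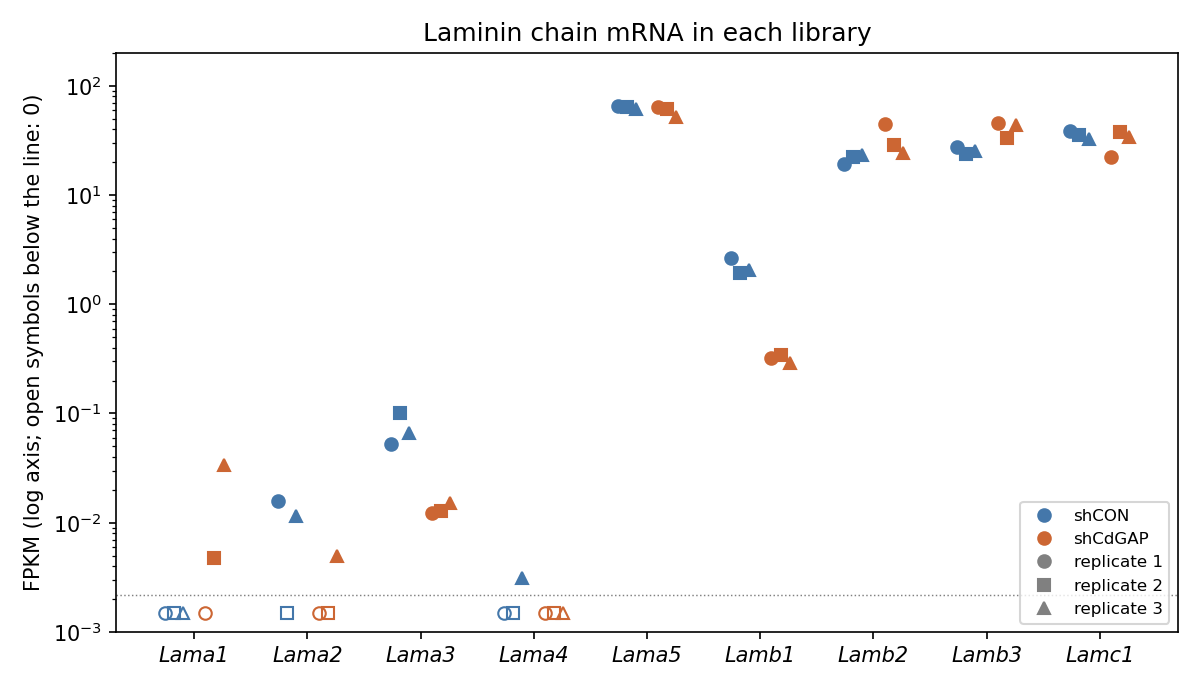
FPKM of each laminin chain in each library on a log axis, with shCON in blue and shCdGAP in orange, 1 symbol shape per replicate number, and open symbols under the dotted line for a value of 0. Lama5, Lamb2, Lamb3 and Lamc1 lie between 19.3 and 65.6 FPKM in all 6 libraries, and Lamb1 is the chain whose groups lie farthest apart among those above 0.1 FPKM.

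The order of levels in shCON was Lama5 (63.7 FPKM), Lamc1 (35.7), Lamb3 (25.5), Lamb2 (21.6), Lamb1 (2.23) and Lama3 (0.0735), with Lama2, Lama4 and Lama1 at 0.00909, 0.00103 and 0. Ranges of neighbours in this order did not overlap as far down as Lama3 and Lama2. In shCdGAP the order was Lama5 (59.4 FPKM), Lamb3 (40.8), Lamb2 (32.8), Lamc1 (31.1) and Lamb1 (0.317), and the ranges of Lamb3, Lamb2 and Lamc1 overlapped one another. Lama5 led in every library. Within each library it stood above at least 92.3% of the genes with reads. Lamb1 moved from above 46.0% to 47.9% of them in shCON to 25.9% to 26.3% in shCdGAP.

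Among the alpha chains, Lama5 was the chain expressed. It encodes alpha 5, the alpha chain most widely found in adult epithelial basement membranes (ENSMUSG00000015647, chromosome 2, 180176373 to 180225859 of mm10, minus strand). Lama5 stood at 64.5, 61.8 and 51.8 FPKM in libraries 1, 2 and 3 of shCdGAP and at 65.6, 64.2 and 61.3 FPKM in shCON. The groups overlapped, and the lowest library was shCdGAP replicate 3. The means were 59.4 ± 6.69 and 63.7 ± 2.18 FPKM (SD, n = 3), with a log2 fold change of -0.11 and a 95% interval of -0.38 to 0.17 (adjusted p = 0.562, limma). Lama5 held 99.98%, 99.97% and 99.90% of summed alpha chain FPKM in shCdGAP and 99.90%, 99.84% and 99.87% in shCON.

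Lama3 encodes alpha 3, which pairs with beta 3 in the laminin that anchors epidermal and glandular epithelium (ENSMUSG00000024421, chromosome 18, 12333819 to 12583013, plus strand). It had 3, 3 and 4 reads in shCdGAP and 11, 30 and 19 reads in shCON, or 0.0122, 0.0127 and 0.0150 against 0.0530, 0.102 and 0.0661 FPKM. The shCdGAP libraries were all lower, but the gene entered the test only through its shCON reads, so a difference was built in. On the log2(FPKM + 1) scale the fold change was -0.08 (95% interval -0.18 to 0.01, adjusted p = 0.193, limma), a scale that all but hides changes at this level. It was called lower with 0.1 FPKM added in place of 1 (log2 fold change -0.61, adjusted p = 0.0440, limma) and by limma-voom on reads (-2.27, adjusted p = 0.00853), and the authors' deposited table also calls it lower (-2.02, SE 0.53, adjusted p = 0.00111, DESeq2).

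The remaining alpha chains were at the edge of detection and were not tested. Lama1, the alpha chain of early embryonic basement membranes (ENSMUSG00000032796, chromosome 17, 67697259 to 67822647, plus strand), had 0, 1 and 8 reads in shCdGAP and 0 in every shCON library. Lama2, whose loss causes a congenital muscular dystrophy (ENSMUSG00000019899, chromosome 10, 26980036 to 27619758, minus strand), had 0, 0 and 2 reads in shCdGAP and 5, 0 and 5 in shCON. Lama4, found around vessels and muscle (ENSMUSG00000019846, chromosome 10, 38965515 to 39110188, plus strand), had 1 read in all, in shCON replicate 3. A count of 0 allows up to 3 reads per library, and the counts above that limit were the 8 reads of Lama1 in shCdGAP replicate 3 and the 5 reads of Lama2 in each of shCON replicates 1 and 3. When every gene with a read was tested, their adjusted p-values were 0.519, 0.533 and 0.919 for Lama1, Lama2 and Lama4 (limma).

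Among the beta chains, Lamb1 fell. It encodes beta 1, the beta chain of most laminins in embryonic and adult tissue (ENSMUSG00000002900, chromosome 12, 31265234 to 31329644, plus strand). In shCON replicates 1, 2 and 3, Lamb1 was at 2.66, 1.95 and 2.07 FPKM (510, 533 and 549 reads). In shCdGAP it was at 0.322, 0.340 and 0.288 FPKM (73, 74 and 71 reads). Every shCdGAP library was below every shCON library, and the 3 shCdGAP values lay close together. Arhgap31 levels in these 3 libraries ran from 0.149 to 0.826 FPKM, and a relation between the 2 genes was not tested. The means were 0.317 ± 0.0262 and 2.23 ± 0.380 FPKM (SD, n = 3), a mean 7.04-fold lower in shCdGAP. The log2 fold change of FPKM + 1 was -1.29 (SE 0.10, 95% interval -1.54 to -1.03, adjusted p = 7.34e-04, limma), and the added 1 FPKM shrinks it: it was -2.47 with 0.1 FPKM added and -2.79 by limma-voom on reads. The authors' deposited table gives -2.74 (SE 0.22, adjusted p = 1.89e-34, DESeq2). The call was kept in all 13 alternative settings.

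Lamb3 rose. It encodes beta 3, which assembles with alpha 3 (ENSMUSG00000026639, chromosome 1, 193207699 to 193343878, plus strand). Lamb3 stood at 45.8, 33.3 and 43.5 FPKM in libraries 1, 2 and 3 of shCdGAP and at 27.3, 23.9 and 25.3 FPKM in shCON. All 3 shCdGAP libraries were above all 3 shCON libraries, and the lowest of them, replicate 2, was the closest to shCON. The means were 40.8 ± 6.67 and 25.5 ± 1.73 FPKM (SD, n = 3), a mean 1.60-fold higher, with a log2 fold change of 0.65 (SE 0.14, 95% interval 0.29 to 1.00, adjusted p = 0.0266, limma). Leaving out shCdGAP replicate 3 ended the call (adjusted p = 0.0727), as did leaving out shCON replicate 1, 2 or 3 (0.0674, 0.115 and 0.103), at log2 fold changes of 0.60 to 0.70. The authors' deposited table calls it higher (0.67, SE 0.18, adjusted p = 0.00168, DESeq2). The annotated span of Lamb3 overlaps Hsd11b1, G0s2 and 4930570N18Rik, which held at most 173, 1 and 3 reads in any library against at least 2305 for Lamb3. Strand handling is not stated, and the effect of the overlap on the Lamb3 counts was not tested.

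Lamb2 encodes beta 2, the chain of the neuromuscular junction and the kidney filter, also found in mature epithelia (ENSMUSG00000052911, chromosome 9, 108479736 to 108490530, plus strand). Its shCdGAP libraries 1, 2 and 3 held 45.0, 29.0 and 24.2 FPKM, and its shCON libraries 19.3, 22.2 and 23.3. The ranges did not overlap, although shCdGAP replicate 3 and shCON replicate 3 lay close together and replicate 1 of shCdGAP stood far above the rest. The means were 32.8 ± 10.9 and 21.6 ± 2.06 FPKM (SD, n = 3), and Lamb2 did not pass the test (log2 fold change 0.53, 95% interval -0.03 to 1.10, adjusted p = 0.162, limma). Without shCdGAP replicate 1 the log2 fold change was 0.29 and still missed the threshold (adjusted p = 0.0938).

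**Figure D2:**
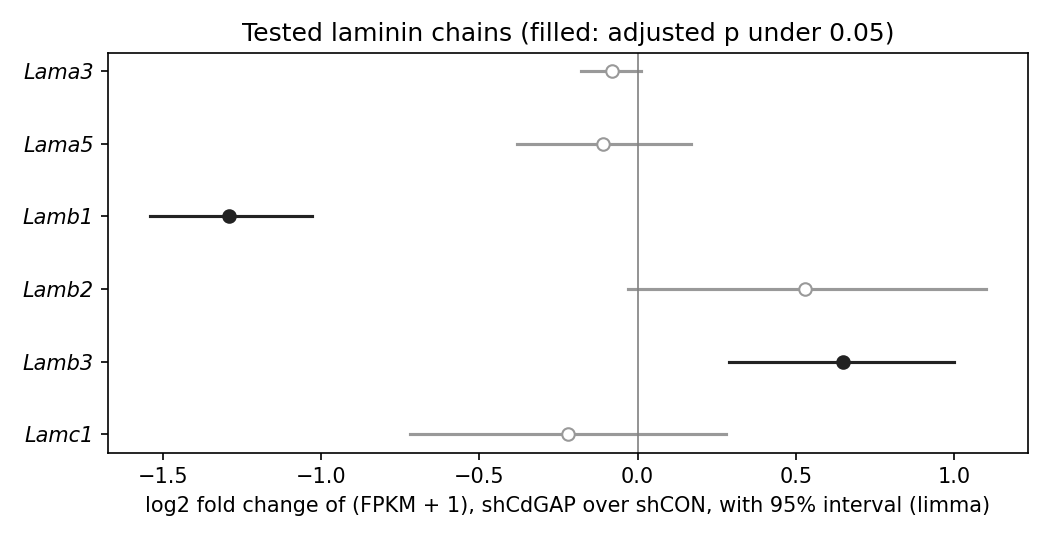
Log2 fold change of FPKM + 1, shCdGAP over shCON, for the 6 tested chains, with the 95% interval of the limma fit as a line and filled circles for an adjusted p under 0.05. Lamb1 lies at -1.29 and Lamb3 at 0.65, and the intervals of the other 4 chains include 0.

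The beta chain mRNAs were also taken as a pool, with its size given and the share of each chain tested. Summed FPKM of Lamb1, Lamb2 and Lamb3 was 91.1, 62.6 and 68.0 in shCdGAP replicates 1, 2 and 3 and 49.3, 48.1 and 50.7 in shCON, so that every shCdGAP library was above every shCON library. The Lamb1 share of that sum was 0.353%, 0.543% and 0.424% in shCdGAP and 5.40%, 4.07% and 4.08% in shCON, a difference of -4.07 percentage points. The groups did not overlap, and 2-sided exact permutation gave p = 0.10, the smallest that 3 against 3 libraries can give (adjusted p = 0.267 over the 8 chain shares). The Lamb2 share averaged 43.8% in both groups (SD 7.26 and 3.99, n = 3), and the Lamb3 share averaged 55.8 ± 7.26% and 51.7 ± 3.23%, with overlapping ranges (exact permutation p = 0.500, adjusted p = 0.667). Without shCdGAP replicate 3, the Lamb3 share differed by -0.0380 percentage points. Lamb3 exceeded Lamb2 in every library, by a ratio of 1.02 to 1.80 in shCdGAP and 1.08 to 1.41 in shCON. The ratio of Lamb3 to Lamb1 was 97.8 to 151 in shCdGAP and 10.3 to 12.2 in shCON.

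**Figure D3:**
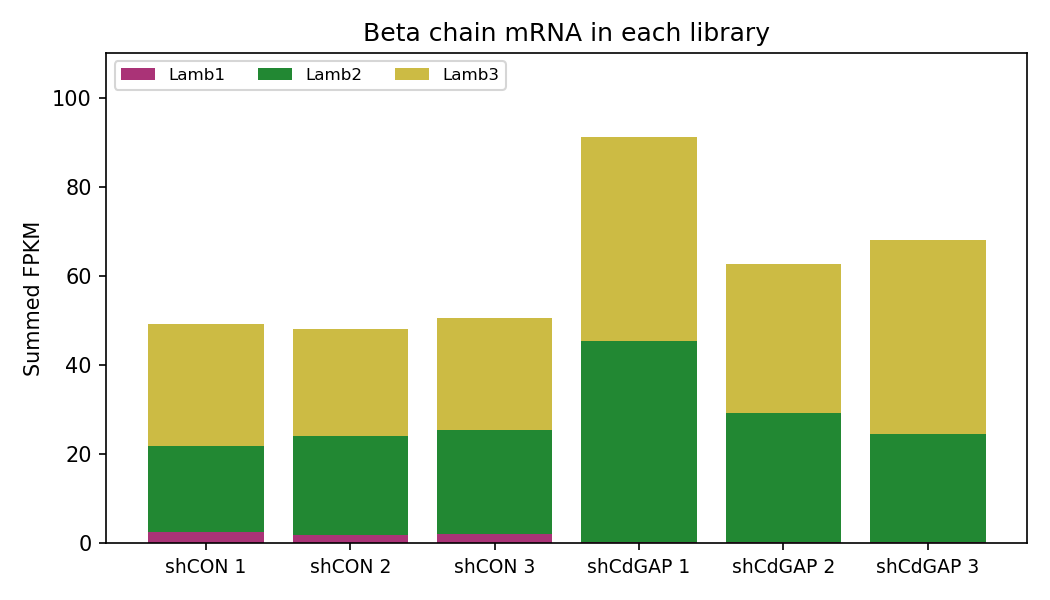
Summed FPKM of Lamb1, Lamb2 and Lamb3 in each library, as stacked bars from 0. The bars reach 48.1 to 50.7 FPKM in shCON and 62.6 to 91.1 in shCdGAP, and the Lamb1 layer at the base is 1.95 to 2.66 FPKM in shCON and at most 0.340 in shCdGAP.

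Lamc1, encoding gamma 1, the gamma chain of most laminins (ENSMUSG00000026478, chromosome 1, 153218922 to 153332786, minus strand), did not pass the test. Its shCdGAP libraries 1, 2 and 3 held 22.1, 37.5 and 33.7 FPKM, and its shCON libraries 38.9, 35.3 and 32.9. The groups overlapped, and the low value was that of shCdGAP replicate 1. The means were 31.1 ± 8.01 and 35.7 ± 3.05 FPKM (SD, n = 3), with a log2 fold change of -0.22 (95% interval -0.72 to 0.28, adjusted p = 0.497, limma). The log2 fold change was -0.00 without shCdGAP replicate 1 (adjusted p = 0.987).

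Lamc3, encoding gamma 3 and not a member, passed the filter through shCON alone. It averaged 0.146 FPKM in shCdGAP and 0.354 in shCON and did not pass (adjusted p = 0.222, limma). Summed by class over the 9 members, alpha, beta and gamma chains were at 63.8, 49.4 and 35.7 FPKM in shCON and at 59.4, 73.9 and 31.1 FPKM in shCdGAP.

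The genes next to the changed chains and the genes most like them were taken by rule. Dld, a mitochondrial dehydrogenase gene that starts 1633 bases past Lamb1, averaged 81.0 ± 4.49 FPKM with shCdGAP and 80.5 ± 5.75 with shCON (SD, n = 3; log2 fold change 0.01, adjusted p = 0.956, limma), and on the other side the snoRNA gene Gm24613 had 1 read. Next to Lamb3, Camk1g and Traf3ip3 averaged at most 0.254 FPKM. The median log2 fold change of genes with at least 5 CPM (counts scaled to library size) was 0.01 on chromosome 12, which holds Lamb1, and -0.10 on chromosome 1, which holds Lamb3. Over the 6 libraries and 10329 other such genes, those with the highest Pearson correlation to Lamb1 on the log2(FPKM + 1) scale were Crebbp (0.9995), Plekhg1 (0.9993) and Havcr2 (0.9992). Plekhg1 averaged 1.59 FPKM in shCON and 0.0101 in shCdGAP, and Havcr2, an immune receptor gene, 5.11 and 0.0592. Both passed the filter on low genes through shCON alone, so a difference was built in, while Crebbp, an acetyltransferase gene, averaged 2.41 and 3.14 FPKM in shCdGAP and shCON without passing (adjusted p = 0.0738, limma). For Lamb3 they were the ribosomal pseudogene Rpl39-ps (0.9985), whose reads may come from its parent gene, Sin3b (0.9980) and Zscan12 (0.9979). These correlations describe 6 points in 2 groups that share depth and scaling.

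Laminin receptors went both ways, with 3 of 14 tested genes higher, 3 lower and 8 not called, beside 21.0% of all tested genes called (list median 0.02). Without shCdGAP replicate 1, again 3 were higher and 3 lower, beside 39.9% of all tested genes called. Among the integrins, which pair 1 alpha with 1 beta subunit, Itga6, the alpha subunit of the main epithelial laminin receptors, fell from 74.1, 55.8 and 52.6 FPKM in shCON to 12.1, 11.6 and 13.6 in shCdGAP (log2 fold change -2.19, SE 0.15, adjusted p = 4.54e-04, limma). The shCdGAP libraries were all lower by a wide margin. Itga3, which also binds alpha 3 and alpha 5 laminins, fell from a mean of 222 to 132 FPKM (-0.77, adjusted p = 0.0319). Its call was lost without shCdGAP replicate 2 or any shCON library (0.0541 to 0.118) and with no filter on low genes (0.0526). Itga1, a receptor subunit for collagen and laminin, rose from 0.509 ± 0.0739 to 8.06 ± 3.39 FPKM (SD, n = 3; 2.53, adjusted p = 0.00163). Their common partner Itgb1 (162 FPKM in shCON, 171 in shCdGAP, adjusted p = 0.767) and Itgb4, the partner of Itga6 in hemidesmosomes (17.5 and 24.4, adjusted p = 0.362), did not pass.

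Outside the integrins, Bcam, a receptor for the alpha 5 chain, rose from 1.42, 1.16 and 1.16 FPKM in shCON to 19.2, 14.2 and 10.9 in shCdGAP (log2 fold change 2.78, SE 0.20, adjusted p = 5.09e-04, limma). No shCdGAP library came near the shCON range. Dag1, encoding dystroglycan, rose from 30.9 ± 2.17 to 55.1 ± 7.32 FPKM (SD, n = 3; 0.81, adjusted p = 0.00759). Sdc2, a heparan sulfate proteoglycan gene, fell from 16.0 ± 1.10 to 7.42 ± 1.04 FPKM (-1.02, adjusted p = 0.00331). Calls on Itga6, Itga1, Bcam, Dag1 and Sdc2 were kept in all 13 alternative settings.

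Hemidesmosome genes, which fasten laminin to keratin filaments, had 0 of 6 tested members higher and 3 lower (list median -0.42), beside 9.92% and 11.1% of all tested genes. Besides Itga6, these were Krt5, a basal keratin that passed the filter on low genes through shCON alone, so that a fall was built in, from a mean of 0.607 to 0.0131 FPKM (adjusted p = 0.00188, limma), and Dst, the linker dystonin, from 16.0 to 10.3 FPKM, a log2 fold change of -0.60 (adjusted p = 0.0239, limma). The call on Dst was lost without any 1 library other than shCdGAP replicate 1 (adjusted p = 0.0661 to 0.107). Of 14 tested genes for the sugar chain of dystroglycan and for the dystrophin complex, Dag1 was higher and 2 were lower (list median -0.07), again beside 21.0% called. Tmem5, a xylosyltransferase that extends that chain, fell from 8.69 to 5.31 FPKM and Sgcb, beta-sarcoglycan, from 5.37 to 3.16 (-0.62 and -0.61, adjusted p = 0.00982 and 0.0146). Tmem5 lost its call without shCON replicate 2 or 3 (0.0596 and 0.0529), and Sgcb without shCdGAP replicate 2 or shCON replicate 1 or 2 (0.0547, 0.0556 and 0.0789). Without shCdGAP replicate 1, 3 genes of this list were higher and 5 lower, beside 39.9% of all tested genes called.

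Basement membrane partners of laminin had 5 of 19 tested genes higher, 3 lower and 11 not called (list median 0.18), beside 21.0% of all tested genes called. Without shCdGAP replicate 1, 8 were higher and 4 lower, where 39.9% of all tested genes were called. Nid2, a nidogen that links laminin to collagen IV, rose from 0.881 ± 0.107 to 2.64 ± 0.165 FPKM (SD, n = 3; log2 fold change 0.95, adjusted p = 0.00161, limma), whereas its paralog Nid1 averaged 0.361 and 0.365 (adjusted p = 0.991). Tinag, a kidney tubule basement membrane protein, rose from 0.526 ± 0.281 to 10.8 ± 6.01 FPKM (2.85, adjusted p = 0.00334). Tinag was highest in shCdGAP replicate 1, at 17.7 FPKM. Npnt, the integrin ligand nephronectin, fell from 62.3 to 33.6 FPKM (-0.87, adjusted p = 0.00619). Calls on Nid2, Tinag and Npnt were kept in all 13 alternative settings. Among the 8 called partners, 2 passed the filter on low genes only through the group where they are high, so a difference was built in: Hmcn1, a hemicentin (0.0217 FPKM in shCON, 0.913 in shCdGAP), and Smoc1 (0.742 and 0.156).

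Collagen IV, the other network of the basement membrane, is built from chains of paired genes. Col4a2 fell from 23.9, 23.7 and 23.6 FPKM in shCON to 15.8, 16.9 and 17.1 in shCdGAP (log2 fold change -0.49, SE 0.08, adjusted p = 0.0106, limma), with its call lost without shCON replicate 2 or 3 (0.0670 and 0.0627). Col4a1 stood at 27.0, 26.5 and 27.0 FPKM in shCON and 29.7, 29.7 and 28.7 in shCdGAP and did not pass (0.13, adjusted p = 0.330). Agrn, encoding agrin, which binds the laminin coiled coil, and Sparc, a collagen-binding matrix protein, named after their values were seen, rose by 0.79 and 0.91 on the log2 scale (adjusted p = 0.0316 and 0.0387). Both lost their calls without shCdGAP replicate 2, without any shCON library and with no filter, and Sparc also without shCdGAP replicate 3 (adjusted p = 0.0523 to 0.127).

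**Figure D4:**
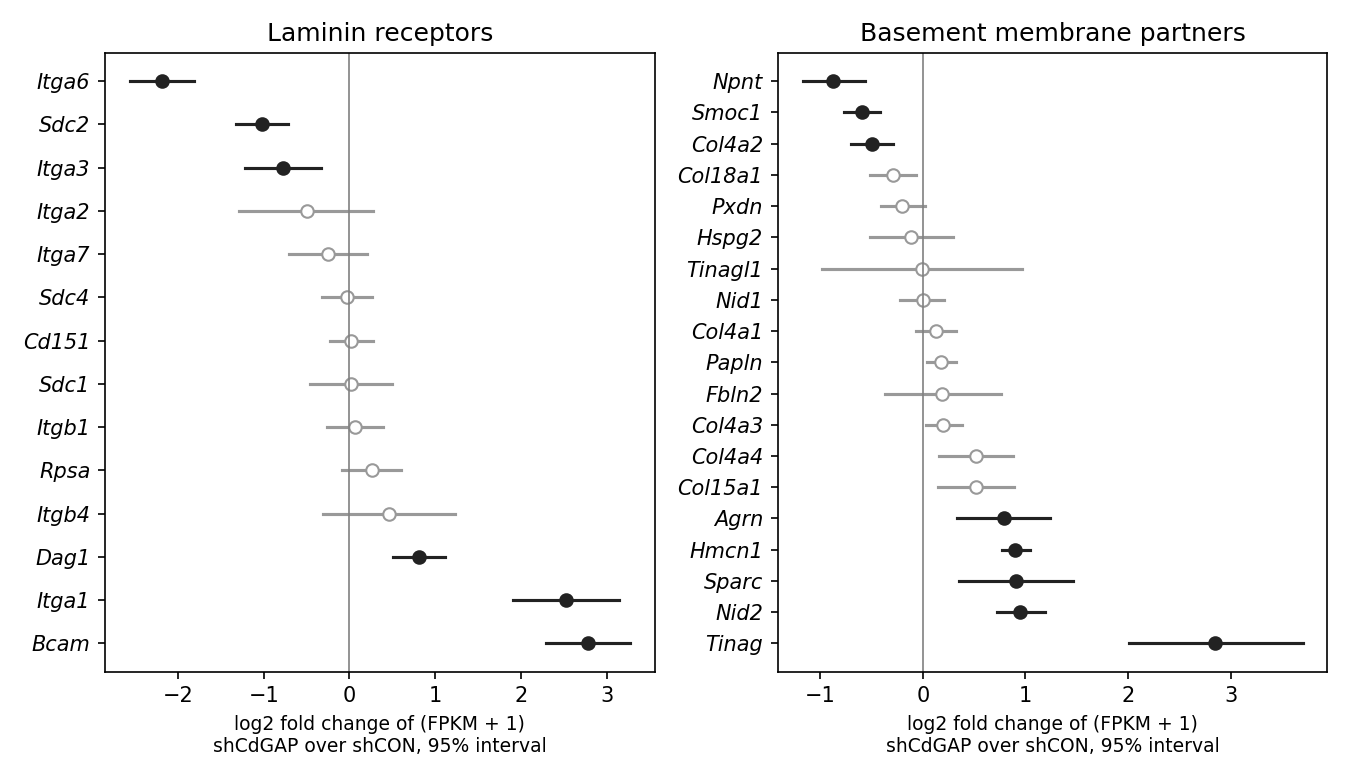
Log2 fold change of FPKM + 1, shCdGAP over shCON, for each tested laminin receptor (left) and basement membrane partner (right), with the 95% interval of the limma fit and filled circles for an adjusted p under 0.05. Receptors run from Itga6 at -2.19 to Bcam at 2.78, and partners from Npnt at -0.87 to Tinag at 2.85.

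Proteases that cut laminins had 2 of 8 tested genes higher and 2 lower (list median -0.07), beside 21.0% of all tested genes called, and 2 and 4 without shCdGAP replicate 1, beside 39.9%. Plau, the urokinase plasminogen activator, averaged 0.177 FPKM in shCON and 1.01 in shCdGAP, and Mmp3, stromelysin, 2.09 and 0.347 (adjusted p = 0.00279 and 0.00450, limma). Each passed the filter only through the group where it is high, so a difference was built in. Plat, the tissue plasminogen activator, fell from 30.6 to 19.4 FPKM (adjusted p = 0.0203), a call lost without any 1 library other than shCdGAP replicate 1 (0.0585 to 0.0895). Mmp15 rose from 0.960 to 2.19 FPKM (adjusted p = 0.0422) and lost its call in 10 of 13 alternative settings. Netrins, which share the laminin N-terminal fold, had 2 tested genes, neither called: Ntn4, whose protein binds laminin gamma chains, averaged 2.39 and 4.39 FPKM in shCON and shCdGAP, and Ntn1, which passed the filter through shCdGAP alone, 0.00976 and 0.265 (adjusted p = 0.0761 and 0.160). Both passed as higher without shCdGAP replicate 1 (adjusted p = 0.0189 and 0.0481, limma), beside 19.9% of all tested genes higher in that setting. For Ntn1 a difference was built in by the filter. In the union of these lists, 10 of 61 tested genes were higher and 12 lower, beside 21.0% of all tested genes called, and 5 of these 22 passed the filter through 1 group alone. Without shCdGAP replicate 1, 18 were higher and 18 lower, beside 39.9%.

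**Figure D5:**
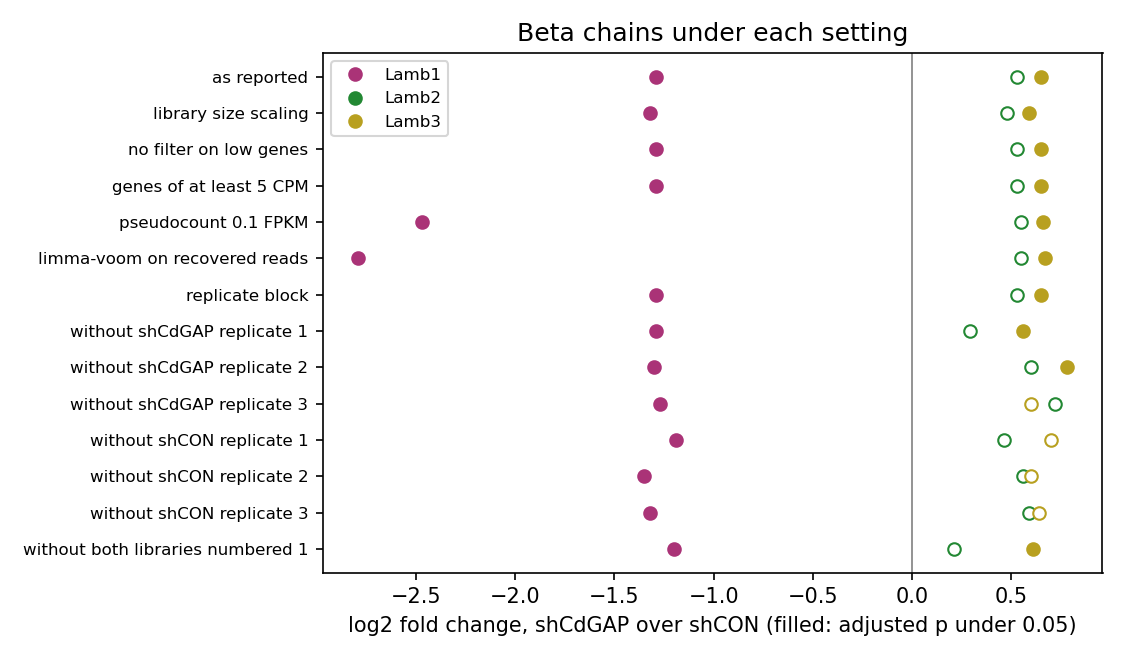
Log2 fold change of Lamb1, Lamb2 and Lamb3 in the fit as reported and in each of 13 alternative settings, filled where adjusted p is under 0.05. Lamb1 is filled throughout and lies at -1.19 to -1.35 except at -2.47 and -2.79 where less or no FPKM is added, Lamb3 lies at 0.56 to 0.78 and is open in 4 settings, and Lamb2 is open throughout.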

How the data were processed

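The authors deposited 1 table with an FPKM value per gene and library. Per the submitters' processing notes, which list tools without roles, Trimmomatic, featureCounts, DESeq2 and TopHat2 2.0.13 were used, and the build was mm10. Annotation release and strand handling are not given in the sources used. Per the file headers, the deposited table also holds the authors' comparison: a mean signal, the log2 fold change, its SE, a test score, and raw and adjusted p-values. FPKM times the ratio of mean signal to mean FPKM, divided by 1 fitted step per library, gave whole reads for 100% of values (tolerance 1e-06).

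A gene was tested if 3 or more libraries had 10 or more reads after scaling to median depth, with 15 or more overall (13483 genes). limma 3.58.1 in R 4.3.3 was fitted to log2(FPKM + 1) of all 6 libraries, with group as the single term, trend and robust variance, 2-sided tests and a threshold of 0.05 on p-values adjusted over all of these genes (Benjamini-Hochberg). A gene low in 1 group could pass the filter through the other alone. Shares used exact permutation over 20 arrangements. The limma step was tested on simulated reads. Positions come from GENCODE M21 (40254 identifiers found) and promoters from RefSeq GRCm38.p6. Tables and plots used Python 3.11.15, pandas 2.3.3, scipy 1.17.1 and matplotlib 3.10.9.

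The members and lists were chosen with earlier results of these data known. Named genes are all members, Arhgap31, per list up to 6 called genes with the smallest p (or the 2 most expressed), and, for each called member, the nearest genes with reads and the 3 most correlated genes. The motifs were chosen after the data had been seen. Same-numbered libraries deviated together from their group means (correlations across genes: 0.43 for number 1, 0.39 for number 2, 0.34 for number 3) and met the criterion for pairs (each over 0.1). The reported fits and permutations do not use the pairing, and 1 alternative, the replicate block, does. The labels do not state a pairing, and the value for shCdGAP 2 with shCON 3 was 0.35. One item of the lists is not reported here.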

Additional observations from a re-analysis of the deposited data

How the results depend on the processing

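Each of 13 settings changed 1 choice: scaling by library size, no filter, genes of at least 5 CPM, 0.1 FPKM added, limma-voom, a replicate block, each library left out, and both libraries numbered 1 left out. Where a library was left out, the shared variance stands for a group of 2. For the 6 tested chains, 70 of 77 fold changes kept their direction and their side of the threshold. The others were Lamb3, which lost its call without 4 single libraries, Lama3, which gained one with 0.1 FPKM added and by limma-voom, and Lamc1, whose log2 fold change turned to 0.06 without both libraries numbered 1 (adjusted p = 0.556). The number of called chains was 1 to 2 with single libraries left out, and the number of called genes over the whole table was 1237 (without shCON replicate 2) to 5373 (without shCdGAP replicate 1), with 1476 without shCdGAP replicate 2 and 1724 and 1332 without shCON replicates 1 and 3. It was 6506 without both libraries numbered 1. Called genes in the pathway lists numbered 13 to 36 with single libraries left out, the lowest without shCON replicate 2 and the highest without shCdGAP replicate 1, and were 39 when both libraries numbered 1 were left out. The fit as reported called 2838 genes, and fits with fewer libraries called more in some cases and fewer in others. The causes of these shifts were not tested. With a replicate block, 2458 genes were called in all and 2 chains, Lamb1 (adjusted p = 0.00695) and Lamb3 (0.0288), and the pathway lists had 23. The block changed no call on a member. The share of Lama5 moved by less than 1 SD without any single library. Depth limits the chains Lama1, Lama2, Lama3 and Lama4, with at most 30 reads per library.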
